A study of Mus musculus with 7 samples.

Results

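Among nuclei of cultured BB-p53n OPCs, a group with high *Ralyl*, *Tafa1* and *Tafa2* transcripts was taken for description. BB-p53n OPCs are mouse oligodendrocyte progenitor cells that lack *Trp53* and overexpress PDGFB, and they form gliomas once injected into the brain. Barcodes with 2000 to 8000 detected genes were kept, and for each nucleus the unique molecular identifiers (UMIs, counted transcript molecules) of the 3 genes were summed and divided by its total. The 10% of kept nuclei with the highest share, 892 of 8917, are called the members, and the 8025 remaining kept nuclei are the other nuclei. The members were therefore chosen on their measured *Ralyl*, *Tafa1* and *Tafa2* levels, and nothing given for them here is a test.

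The OPCs came from *Trp53* fl/fl C57BL/6 pups of either sex at postnatal day 5 to 7, were selected with an antibody to CD140a (PDGFRα), and received a PDGFB-IRES-CRE retrovirus, so that Cre removed *Trp53* in the cells that also gained PDGFB. All nuclei were from 1 library of cultured cells carrying both changes, with 3 early and 3 late tumor samples of the study not analysed here, and no OPCs without the deletion or the virus were compared. With 1 library there are no replicates: values are given as counts per 1000000 UMIs of a group (CPM), with 95% exact Poisson intervals, and ratios with exact conditional binomial intervals. These intervals cover counting error only.

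OPCs are dividing glial cells that carry the PDGFRα receptor, depend on the transcription factors OLIG2 and SOX10, and mature into myelin-forming oligodendrocytes. They also receive synapses from neurons and express many genes of synaptic adhesion, ion channels and neurotransmitter receptors. *Ralyl* encodes an RNA-binding protein of the RALY and hnRNP C family, and *Tafa1* and *Tafa2* encode small secreted proteins of the TAFA family, made mainly in the nervous system, some of which bind neurexins. *Syt1*, a marker proposed with them, encodes synaptotagmin-1, the calcium sensor of vesicle release.

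The start regions of the genes that define or mark the members are shown because their transcripts were high in the same nuclei. Windows of 250 bases before to 50 bases after a start site were taken from RefSeq on GRCm38.p6, an older build than the mm39 of the counts. *Ralyl* had no matching window and *Syt1* had 2, of which the one with matches is printed. Capitals mark E-box motifs, CANNTG, the letters that basic helix-loop-helix factors such as OLIG2 bind; the motif reads the same on both strands. The windows are chr6:96112904-96113203 (plus strand), chr10:123263826-123264125 (plus strand) and chr10:109009062-109009361 (minus strand).
Tafa1: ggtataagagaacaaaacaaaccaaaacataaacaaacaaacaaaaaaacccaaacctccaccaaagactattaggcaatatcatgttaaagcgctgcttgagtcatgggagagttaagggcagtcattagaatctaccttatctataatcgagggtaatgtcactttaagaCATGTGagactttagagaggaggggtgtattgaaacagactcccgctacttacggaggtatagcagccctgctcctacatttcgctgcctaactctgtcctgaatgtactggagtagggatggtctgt
Tafa2: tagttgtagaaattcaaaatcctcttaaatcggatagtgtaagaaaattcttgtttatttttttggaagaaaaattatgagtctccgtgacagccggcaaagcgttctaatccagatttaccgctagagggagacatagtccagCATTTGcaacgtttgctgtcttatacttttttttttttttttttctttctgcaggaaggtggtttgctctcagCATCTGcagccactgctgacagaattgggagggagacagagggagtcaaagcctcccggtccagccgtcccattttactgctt
Syt1: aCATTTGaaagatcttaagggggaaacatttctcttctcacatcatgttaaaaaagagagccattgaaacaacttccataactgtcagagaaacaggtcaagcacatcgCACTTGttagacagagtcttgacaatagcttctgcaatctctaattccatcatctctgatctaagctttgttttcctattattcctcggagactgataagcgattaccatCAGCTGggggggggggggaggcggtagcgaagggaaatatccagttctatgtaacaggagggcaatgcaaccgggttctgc
The *Tafa1* window held 1 E-box, the *Tafa2* window 2 and this *Syt1* window 3, while the other *Syt1* window held none. An E-box is common, since 72.3% of 32851 RefSeq windows of this length held at least 1, and 17.6% held at least 3. The *Tafa1* and *Tafa2* windows held 5 and 8 CpG dinucleotides, beside a median of 7 over all windows.

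The rule genes were spread over 3 chromosomes. *Ralyl* (ENSMUSG00000039717, GRCm39 chr3:13536715-14247347, plus strand) stood at 116 CPM (110 to 122) in the members and 6.33 CPM (5.90 to 6.77) in the other nuclei. *Tafa1* (ENSMUSG00000059187, chr6:96090088-96635542, plus strand) stood at 372 CPM (361 to 383) and 19.0 CPM (18.3 to 19.8). *Tafa2* (ENSMUSG00000044071, chr10:123099901-123577979, plus strand) stood at 603 CPM (589 to 618) and 32.4 CPM (31.4 to 33.3). All 3 differ between the groups because the rule made them differ. Of the UMIs of the 3 genes in the members, *Ralyl* gave 10.6%, *Tafa1* 34.1% and *Tafa2* 55.3%, and the same genes gave 11.0%, 33.0% and 56.0% of theirs in the other nuclei.

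There was no gap at the limit of the rule. The members' summed level of the 3 genes ran from 536 to 12995 CPM with a median of 961 CPM, on 2 to 79 UMIs per nucleus with a median of 11. The last 3 members inside the limit had 536.62, 536.44 and 535.91 CPM, and the first 3 nuclei outside had 535.71, 534.71 and 534.17 CPM. All 3 transcripts were present in 403 members (45.2%), 2 of them in 396 and a single one in 93, most often *Tafa2* alone (78 members). In the other nuclei, 66.4% had no UMI of the 3 genes and 1.94% had all 3. With *Ralyl* left out of the rule, members chosen on *Tafa1* and *Tafa2* alone still had 11.0 times (10.09 to 11.97) the *Ralyl* level of the nuclei outside. The same held for *Tafa1* at 9.90 times (9.43 to 10.4) and *Tafa2* at 8.78 times (8.45 to 9.12) when each was left out in turn.

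At 5000 UMIs drawn from each nucleus, *Ralyl* was found in 37.9% of members and 2.48% of the other nuclei, *Tafa1* in 69.5% and 7.61%, and *Tafa2* in 87.9% and 11.1%. Drawing a fixed number removes differences in depth, and it left out 21 members and 136 other nuclei that were shallower. Over all UMIs the shares were 55.5% and 6.13% for *Ralyl*, 83.1% and 15.5% for *Tafa1*, and 96.2% and 22.6% for *Tafa2*. No nuclei in the library are known to lack these genes, so how much of the low shares in the other nuclei is free RNA was not tested.

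The members were shallower than the other nuclei, at 10258 UMIs and 4035.5 detected genes in the median nucleus beside 14110 UMIs and 4769 genes. At 5000 UMIs each the medians were 2595 and 2596 genes. The members also had a lower share of mitochondrial UMIs, 5.18% at the median beside 6.28%, and 43.6% of them but 19.5% of the other nuclei had at most 5%. Scrublet, a doublet caller, marked 0 nuclei and so could not be used to remove doublets. Of the members, 5.27% lay among the 8% of kept nuclei with the highest Scrublet scores, beside 8.30% of the other nuclei. *Trp53* stood at 22.5 CPM in the members, 0.902 times the other nuclei, but a sum over the whole gene does not show the floxed exons and does not check the deletion.

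*Syt1* (ENSMUSG00000035864, chr10:108333505-108846856, minus strand) was not used by the rule and was 2.57 times (2.46 to 2.67) as high in the members, at 248 CPM beside 96.7 CPM. It was found in 61.4% of members and 30.8% of the other nuclei at 5000 UMIs each, and in 80.0% and 53.9% over all UMIs. *Syt1* therefore marked more of the members but was not limited to them. Its level climbed with the rule share, from 80.5 CPM in the 5331 nuclei without a UMI of the 3 genes to 111 CPM in the 1803 nuclei with some, 149 CPM in the 891 nuclei just below the members, 227 CPM in the lower 446 members and 273 CPM in the upper 446. *Cdk6* and *Unc5d* took the same order, while *Pdgfra* and *Sparcl1* were highest in the nuclei with some UMIs of the rule genes and lower at each later step, as the plot of levels against the rule share shows.

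**Figure D1:**
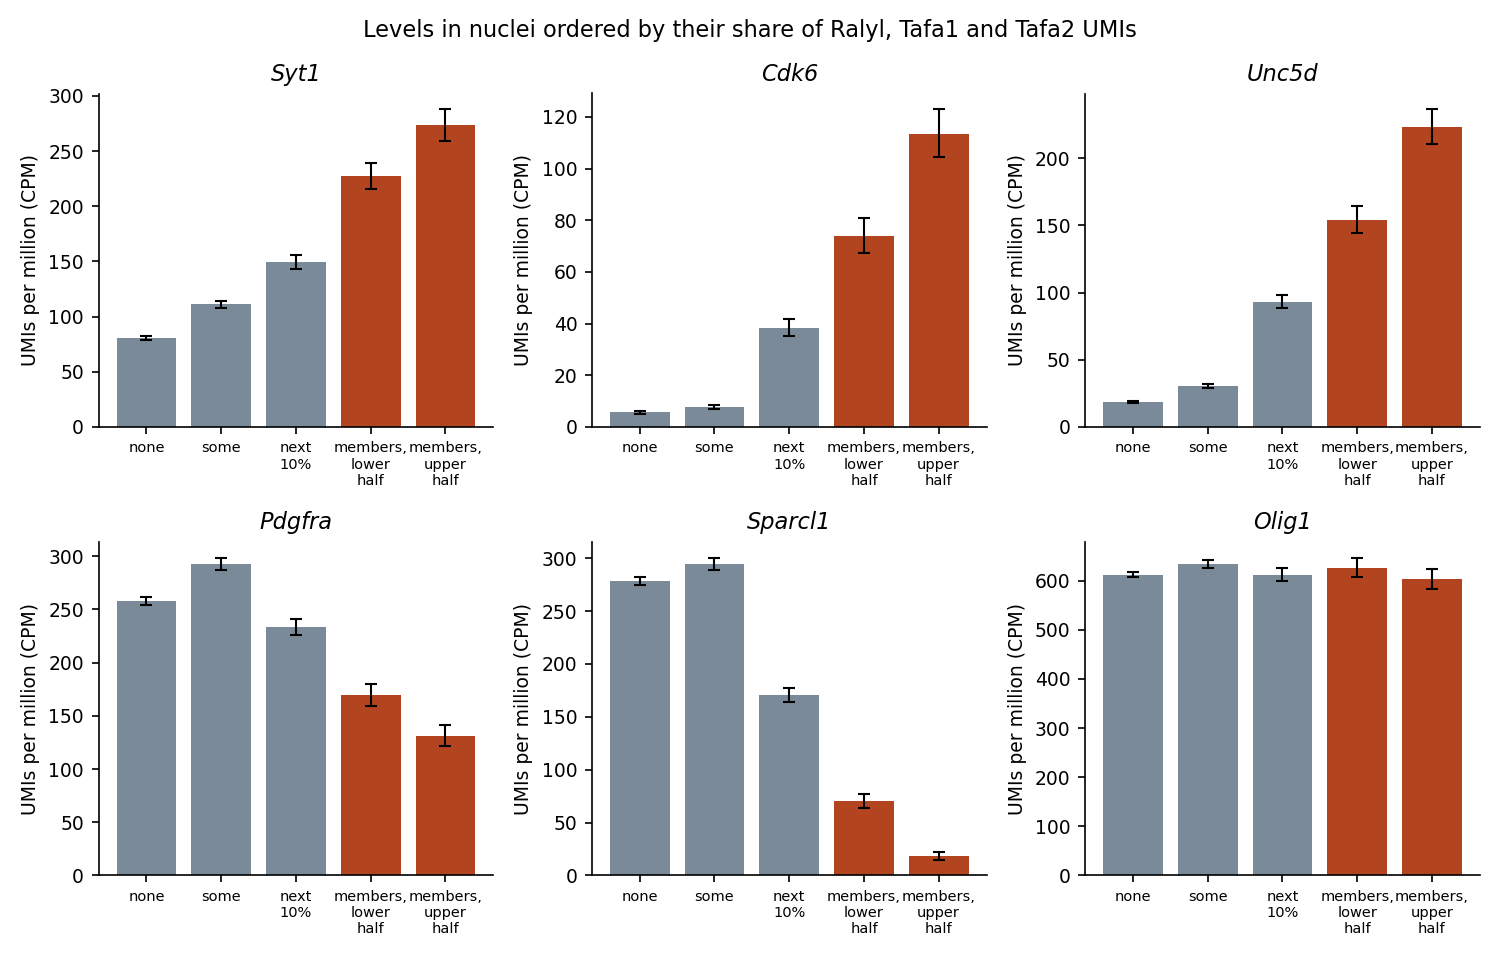
Levels of 6 genes (CPM, with 95% counting intervals) in nuclei ordered by their share of *Ralyl*, *Tafa1* and *Tafa2* UMIs, in 5 steps from none to the upper members. *Syt1*, *Cdk6* and *Unc5d* are higher at each step, with *Cdk6* at 5.63 CPM in the first and 113 CPM in the last, whereas *Pdgfra* and *Sparcl1* are lowest in the members, *Sparcl1* ending at 18.3 CPM, and *Olig1* stays between 604 and 634 CPM.

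Across the 9614 genes compared, those with at least 10 CPM in either group, 280 (2.91%) were at least 2 times as high in the members and 190 (1.98%) at most 0.5 times as high, with a median log2 ratio of -0.03 over all of them. Of the 280 genes, 277 were not rule genes. The genes furthest apart in each direction, 12 higher and 10 lower, among genes with 100 or more UMIs and found in 25% or more of the nuclei of the higher group, are shown with their levels in the plot of the named genes. These genes come from the same nuclei that the rule sorted, so their ratios are a description. Ratios were also taken within nuclei that had a Y-linked UMI and no *Xist*, called Y-linked nuclei here, and within nuclei with at most 5% mitochondrial UMIs, called low-mitochondrial, among which the rule was applied anew and gave 195 members. Of the 59 genes beyond the rule genes that passed 2-fold (at least 2 times or at most 0.5 times as high) in a gene list or among the furthest, 47 kept it in low-mitochondrial nuclei. Of the 54 of them that are not sex-linked, 33 kept it within Y-linked nuclei, and *Syt1* at 1.96 times was among the 21 that did not.

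*Cdk6*, a cyclin D-dependent kinase that drives entry into S phase, led the higher genes at 92.1 CPM beside 9.83 CPM, 9.37 times (8.63 to 10.2). It was found in 33.3% of members and 4.66% of the other nuclei at 5000 UMIs each. *Unc5d*, a netrin receptor of axon guidance, stood at 186 CPM beside 30.1 CPM, and *Gpr149*, an orphan G protein-coupled receptor, at 95.6 CPM beside 13.9 CPM. *Lingo2* and *Vstm2a*, which encode a leucine-rich repeat membrane protein and an immunoglobulin domain protein, were 5.93 and 6.02 times as high. *Vxn*, a factor of neuronal differentiation, was 6.30 times and *Pllp*, a membrane protein of myelin, 6.19 times as high. *Arfgef3*, *AI593442* and *Arhgef3* had ratios of 7.26, 6.80 and 6.78, of which *Arhgef3* encodes an activator of RhoA. The last 2 of the 12, *Eif2s3y* and *Kdm5d*, are genes of the Y chromosome.

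Among the lower genes, *Xist*, the long noncoding RNA that silences 1 X chromosome in female cells, stood at 18.5 CPM in the members beside 197 CPM. *Sparcl1*, a secreted matrix protein of the SPARC family, stood at 46.4 CPM beside 271 CPM, and was found in 10.2% of members and 57.4% of the other nuclei at 5000 UMIs each. *Erbb3*, a neuregulin co-receptor, stood at 10.7 CPM beside 62.1 CPM, a ratio of 0.173 (0.143 to 0.207). *Igfbp4*, a binder of insulin-like growth factors, was at 0.167 times, and *Bmpr1b*, a receptor of bone morphogenetic proteins, at 0.240 times. Both lost the 2-fold difference within Y-linked nuclei, where *Igfbp4* was at 0.510 times and *Bmpr1b* at 0.792 times, and *Igfbp4* was at 0.649 times among nuclei with neither a Y-linked UMI nor *Xist*. *Fam135b*, *Gm42047*, *Ppic*, *Eda* and *Lyn*, the last a kinase of the Src family, were at 0.164, 0.195, 0.237, 0.237 and 0.188 times.

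**Figure D2:**
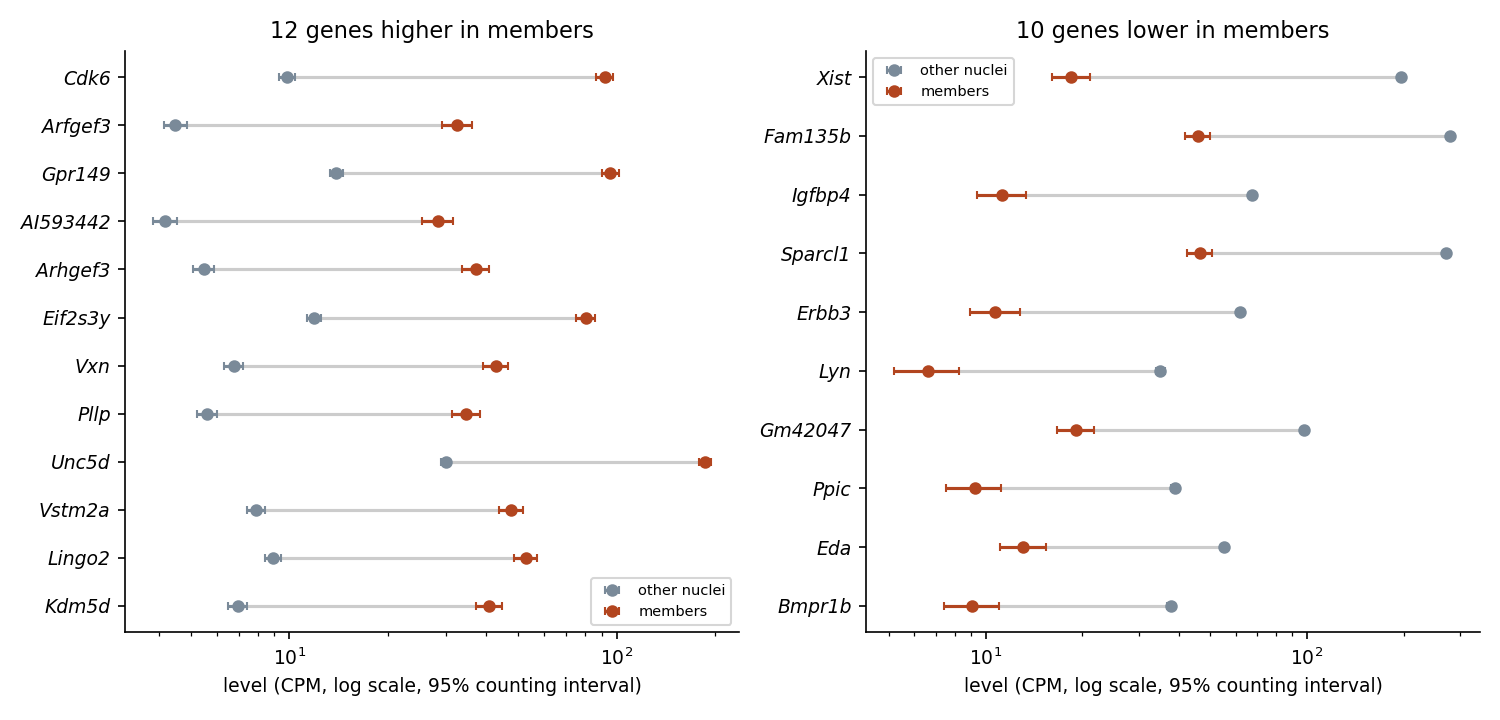
Levels (CPM on a log axis, with 95% counting intervals) of 12 genes with the highest and 10 with the lowest ratio of members to other nuclei. *Cdk6* is 9.37 times as high in the members, and *Xist* is at a ratio of 0.0939.

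Genes of OPCs remained high in the members. The 10 OPC genes summed to 6413 CPM beside 5447 CPM, 1.18 times (1.17 to 1.19). The sum was, however, at 0.975 times within Y-linked nuclei and 1.03 times among nuclei with neither a Y-linked UMI nor *Xist*. It stood at 2773 CPM in the 1930 other nuclei with *Xist* and no Y-linked UMI. Over all kept nuclei, much of the higher sum came from *Lhfpl3*, at 2604.8 CPM beside 1895.5 CPM, 1.37 times (1.36 to 1.39). *Lhfpl3* was the highest of the list in both groups. Of the 9 compared, 0 passed 2-fold in either direction, and the median log2 ratio was 0.16. *Olig1* and *Olig2* stood at 616 and 324 CPM beside 618 and 291 CPM. The proteoglycan gene *Vcan* and the matrix gene *Tnr* were 1.91 and 1.93 times as high. *Pdgfra*, the receptor for which the cells were selected, stood at 152 CPM beside 265 CPM, 0.573 times (0.545 to 0.601), and *Sox10* at 61.5 CPM beside 89.6 CPM, 0.686 times. Lower *Pdgfra* and *Sox10* thus stood beside higher *Vcan* and *Tnr*, with *Olig1* close to 1.

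Of the genes of myelinating oligodendrocytes, *Cnp* stood at 48.0 CPM beside 58.0 CPM, 0.828 times. *Cldn11* went the other way, at 15.2 CPM beside 10.5 CPM, 1.44 times (1.23 to 1.69). *Mag* and *Aspa* had no UMI in the members but only 2 and 11 in the other nuclei, too few to compare. In the list of committed precursors, 1 of 5 compared genes passed 2-fold, *Nkx2-2*, a factor of oligodendrocyte specification, at 52.2 CPM beside 18.8 CPM, while the median log2 ratio was -0.19. *Tcf7l2* and *Itpr2* of the same list were at 0.729 and 0.859 times. Of the 8 genes of primitive OPCs, 0 passed 2-fold and the median log2 ratio was 0.28, with *Egfr* 1.81 times as high. Among all compared genes, 2.91% were at least 2 times as high and 1.98% at most 0.5 times. Of 23 compared transcription factors of glial lineages, 2 were at least 2 times as high and 0 at most 0.5 times. Their median log2 ratio was 0.16. The 2 higher factors were *Nkx2-2* and *Sox9* (396 CPM beside 188 CPM). Neither kept 2-fold in Y-linked nuclei, at 1.28 times for *Nkx2-2* and 1.21 times for *Sox9*, or in low-mitochondrial nuclei, at 1.65 and 1.34 times.

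Neuronal markers were mixed, with *Gap43* and *Snap25* over 2-fold and the others on both sides of 1. The 10 neuronal genes summed to 2085 CPM beside 1446 CPM, 1.44 times (1.42 to 1.46) and 1.19 times within Y-linked nuclei, of which *Map2* gave 1603 CPM. Of the 6 compared, 2 were at least 2 times as high and 0 at most 0.5 times, with a median log2 ratio of 0.17. Over all compared genes the shares were 2.91% and 1.98%. *Gap43*, a protein of growing axons, stood at 370 CPM beside 111 CPM, and *Snap25*, a SNARE protein of synaptic vesicles, at 20.3 CPM beside 7.18 CPM. Within Y-linked nuclei *Gap43* was at 1.75 times and *Snap25* at 1.55 times, both under 2-fold. Among genes of mature neurons, *Rbfox3*, which encodes the nuclear protein NeuN, was 1.89 times (1.48 to 2.40) as high on low levels, at 7.12 CPM beside 3.77 CPM. The postsynaptic scaffold gene *Dlg4* stood at 42.7 CPM beside 43.7 CPM, and the tubulin gene *Tubb3* at 25.5 CPM beside 26.1 CPM. The neurofilament gene *Nefm*, on chromosome 14, stood at 8.27 CPM beside 13.9 CPM. *Stmn2* had 0 UMIs in the members, with an upper limit of 0.324 CPM, and only 4 in the other nuclei. Of the 7 genes of glutamatergic neurons, whose sum was 44.6 CPM beside 46.9 CPM, *Slc17a7* and *Slc17a6* had 1 and 0 UMIs in the members. None of the 9 genes of GABAergic neurons reached 10 CPM, and their sum was 11.6 CPM beside 7.04 CPM.

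Genes of neural progenitors summed to 1152 CPM beside 902 CPM. Of 8 compared, 3 were at least 2 times as high and 0 at most 0.5 times, beside 2.91% and 1.98% of all compared genes. Their median log2 ratio was 0.56. *Dcx*, a microtubule protein of migrating young neurons, stood at 93.7 CPM beside 25.4 CPM and was found in 36.1% of members and 11.3% of the other nuclei at 5000 UMIs each. *Elavl4*, an RNA-binding protein of neurons, stood at 91.3 CPM beside 38.5 CPM, and *Cd24a* at 48.1 CPM beside 23.2 CPM. Within Y-linked nuclei *Dcx* was at 1.64 times and *Elavl4* at 1.29 times, and in low-mitochondrial nuclei *Elavl4* was at 1.60 times and *Cd24a* at 1.91 times, all under 2-fold. *Nes*, which encodes the intermediate filament nestin and is the most abundant of the list in the other nuclei, stood at 249 CPM beside 331 CPM, 0.750 times (0.722 to 0.779). *Nhlh1* and *Eomes*, of neuronal precursors, had 0 and 7 UMIs in the members.

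Astrocyte markers stood 1.52 times (1.49 to 1.55) as high in sum, at 783 CPM beside 515 CPM, carried by 2 of the 8 genes. *Slc1a3*, a glutamate transporter, stood at 410 CPM beside 222 CPM, and *Aldoc*, a glycolytic aldolase, at 287 CPM beside 184 CPM. *S100b* was lower, at 68.9 CPM beside 93.9 CPM, 0.734 times (0.682 to 0.789). Of the 4 compared genes 0 passed 2-fold in either direction, and the median log2 ratio was 0.40. *Gfap* was at 1.76 CPM, *Gja1* and *Aldh1l1* had 1 UMI each, and *Aqp4* had 0. The 6 genes each of microglia, endothelium and pericytes or fibroblasts summed to 26.3, 18.3 and 0.352 CPM in the members and 24.0, 10.4 and 0.578 CPM in the other nuclei. The defining genes *Aif1* of microglia and *Cdh5* of endothelium had 0 UMIs in the members, beside 1 and 7 in the other nuclei, and *Cldn5* had 0 in both groups. *Flt1* and *Kdr*, receptors of vascular endothelial growth factor in the endothelial list, were 4.08 times (3.12 to 5.28) and 2.89 times (2.02 to 4.05) as high on low levels, at 7.04 CPM beside 1.73 CPM and 3.78 CPM beside 1.31 CPM. The plot of marker lists sets the summed levels of all these lists but the pericyte or fibroblast one and the myelinating one side by side.

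**Figure D3:**
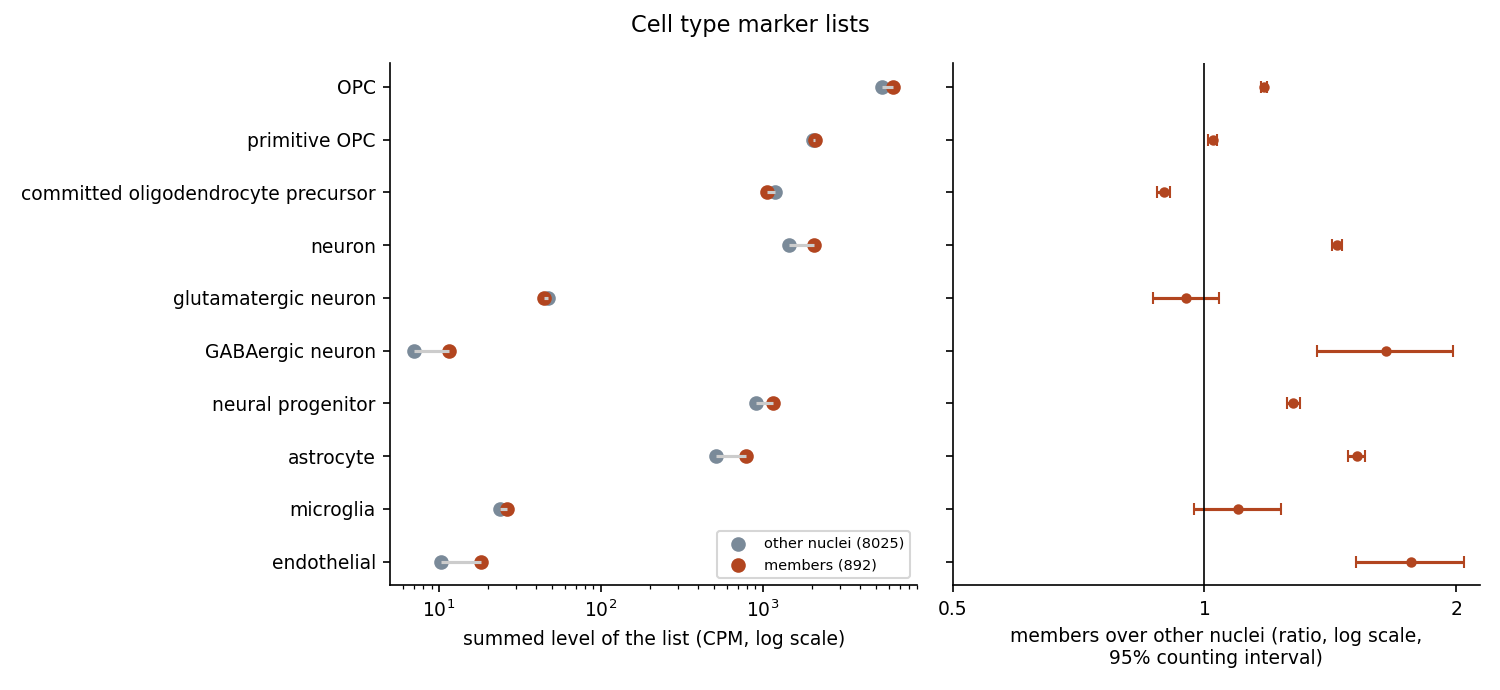
Summed levels of 10 marker lists in the members and the other nuclei (left, CPM on a log axis) and their ratio with 95% counting intervals (right, log axis). The OPC list is the highest in both groups, at 6413 and 5447 CPM. The astrocyte and neuron lists lie at 1.52 and 1.44 times, and the list of committed precursors at 0.894 times.

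Genes of the synapse and of axon guidance followed, with a few genes of each family past 2-fold and most below it. Over all compared genes, 2.91% were at least 2 times as high and 1.98% at most 0.5 times. Among compared genes over 300 kb outside chromosome 14, without the rule genes, 15.4% were at least 2 times as high. Of 34 compared genes of synaptic adhesion, 6 were at least 2 times as high, 1 was at most 0.5 times and 27 lay between, with a median log2 ratio of 0.17. *Ntng1*, which encodes netrin-G1, stood at 119 CPM beside 22.4 CPM, and its postsynaptic partner *Lrrc4c* at 947 CPM beside 294 CPM. *Tenm2*, a teneurin, stood at 241 CPM beside 66.2 CPM, and *Clstn2*, a calsyntenin, at 18.9 CPM beside 5.90 CPM. The others were *Tenm4* and *Nrxn3*, and the low gene was *Slitrk1* on chromosome 14. Within Y-linked nuclei *Clstn2* was at 1.55, *Nrxn3* at 1.99 and *Slitrk1* at 0.620 times, and in low-mitochondrial nuclei *Clstn2* was at 1.55 and *Tenm4* at 1.45 times, so that these did not keep 2-fold. Of the partners known for TAFA proteins, 1 of 4 compared passed 2-fold, *Nrxn3* at 454 CPM beside 185 CPM, whereas *Nrxn2* was 0.902 times and *S1pr2* 0.673 times as high. Within the TAFA family itself, *Tafa4* and *Tafa5* were at 1.10 and 0.970 times, and *Tafa3* had 2 UMIs in the members. In the RALY family, *Raly* was at 0.911 times and *Hnrnpc*, on chromosome 14, at 0.723 times.

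Of 27 compared genes of axon guidance, 6 were at least 2 times as high and 0 at most 0.5 times, with a median log2 ratio of 0.24. After *Unc5d*, the ephrin receptor genes *Epha3* and *Epha7* were 5.26 and 3.17 times as high, and the semaphorin gene *Sema3e* 3.23 times. *Epha5* and *Slit2* followed at 2.36 and 2.15 times, and at 1.84 and 1.74 times within Y-linked nuclei. In low-mitochondrial nuclei *Slit2* was at 1.79 times.

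Of 17 synaptotagmins, 8 were compared and 3 were at least 2 times as high: *Syt1*, *Syt9* (23.3 CPM beside 8.49 CPM) and *Syt16* (21.7 CPM beside 8.85 CPM). Their median log2 ratio was 0.71, and 0 were at most 0.5 times. Of 17 compared genes of vesicle release, 2 were at least 2 times as high, *Snap25* and *Unc13b* (27.4 CPM beside 11.7 CPM), and 0 at most 0.5 times, with a median log2 ratio of 0.33. *Sv2c*, a vesicle glycoprotein, lay just above the lower limit at 0.511 times. High *Syt1* thus came with *Snap25* and *Unc13b* among the genes of vesicle fusion, while *Vamp2* stood at 1.01 times. Within Y-linked nuclei *Syt1*, *Syt16*, *Snap25* and *Unc13b* were at 1.96, 1.57, 1.55 and 1.71 times, and *Syt9* alone of those named here stayed over 2-fold. In low-mitochondrial nuclei *Syt16* was at 1.76 times and *Unc13b* at 1.70 times.

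Transmitter receptors split within families. Of 7 compared GABA-A receptor subunits, 3 were at least 2 times as high and 1 at most 0.5 times, with a median log2 ratio of 0.59. *Gabrb2* stood at 31.9 CPM beside 6.03 CPM, *Gabra4* at 10.2 CPM beside 3.86 CPM and *Gabra2* at 21.5 CPM beside 8.33 CPM, whereas *Gabra3* stood at 4.13 CPM beside 13.6 CPM. In low-mitochondrial nuclei *Gabra2* was at 1.61 times and *Gabra4* at 1.91 times. *Gabra4* was at 1.97 times within Y-linked nuclei. Of 15 compared glutamate receptor genes, 2 were at least 2 times as high, *Grin3a* (226 CPM beside 92.2 CPM) and *Grm7* (27.4 CPM beside 12.7 CPM), and 1 at most 0.5 times, *Grin2a* (5.10 CPM beside 28.4 CPM), with a median log2 ratio of 0.13. In low-mitochondrial nuclei *Grm7* was at 1.69 times. Within Y-linked nuclei *Grin3a* was at 1.75 times and *Grm7* at 1.55 times. *Grin2a* turned to 3.53 times (2.07 to 6.04) there, and to 1.59 times (0.572 to 3.55) among nuclei with neither. Of 15 compared sodium and calcium channel genes, 2 were at least 2 times as high, among them *Scn3a* (26.9 CPM beside 5.02 CPM), and 0 at most 0.5 times, with a median log2 ratio of 0.12.

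Growth factor receptors and PDGF ligands held 1 gene at most 0.5 times and 0 at least 2 times among 11 compared, the low gene being *Erbb3*, with a median log2 ratio of -0.03. *Erbb4* was at 0.977 times and *Pdgfa* at 0.897 times, and the mouse *Pdgfb* gene had 2 UMIs in the members. Of 9 compared genes of *Trp53* and its targets, 1 passed 2-fold, *Cdkn1a*, the cell cycle inhibitor p21, at 46.8 CPM beside 15.9 CPM, 2.94 times (2.67 to 3.24) but 1.70 times within Y-linked nuclei, and the median log2 ratio was 0.07. *Mdm2*, another target, was 1.32 times as high and *Bax* 1.05 times. High *Cdk6* and high *Cdkn1a* were thus found in members whose summed lists of cycle genes lay close to the other nuclei when all kept nuclei were compared. The 33 S phase genes summed to 3605 CPM, 1.08 times, and the 44 G2/M genes to 6743 CPM, 0.964 times, and 0 of either list passed 2-fold in either direction, with median log2 ratios of 0.07 and -0.09. Within Y-linked nuclei the G2/M list was at 0.877 times (0.869 to 0.885). It stood at 7287 CPM in the lower 446 members and 6106 CPM in the upper 446, beside 6964 CPM in nuclei without a UMI of the rule genes. The G2/M genes *Dlgap5* and *Cdca2*, at 0.535 and 0.562 times, were the lowest and both lie on chromosome 14.

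Chromosome 14 stood apart in the members as a whole. It gave 2.18% of their UMIs and 3.41% of those of the other nuclei, a ratio of 0.640 (0.637 to 0.642). Of its 275 genes with at least 20 CPM, 270 were lower in the members, with a median log2 ratio of -0.76. Median log2 ratios of the other autosomes and the X chromosome ran from -0.25 on chromosome 17 to 0.22 on chromosome 11. In windows of 10 Mb along chromosome 14 the median log2 ratio lay between -0.88 and -0.40, so that the lower level was not limited to a stretch of it. Chromosome 14 held 337 of the 9614 compared genes. Of the 190 genes at most 0.5 times as high in the members, 56 lie on it. Of the 280 higher genes 4 do, *Arhgef3* among them.

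Nucleus by nucleus, the chromosome 14 share had a median of 1.93% in the members and 3.35% in the other nuclei. It lay below the median of the other nuclei in 96.5% of members, and below their 5th percentile (2.07%) in 548 members (61.4%). The 892 kept nuclei of the lowest chromosome 14 share included 522 members (58.5% of both sets). Of the remaining 370 of them, 74.6% held a UMI of the rule genes, beside 31.6% of the 7655 other nuclei that were in neither set. The share was 3.47% of UMIs in nuclei without a UMI of the 3 genes and 3.49% in those with some, and then fell along the rule to 2.86% just below the members, 2.30% in the lower 446 members and 2.04% in the upper 446. A change in the number of chromosomes and a shift in transcription cannot be told apart from these counts.

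**Figure D4:**
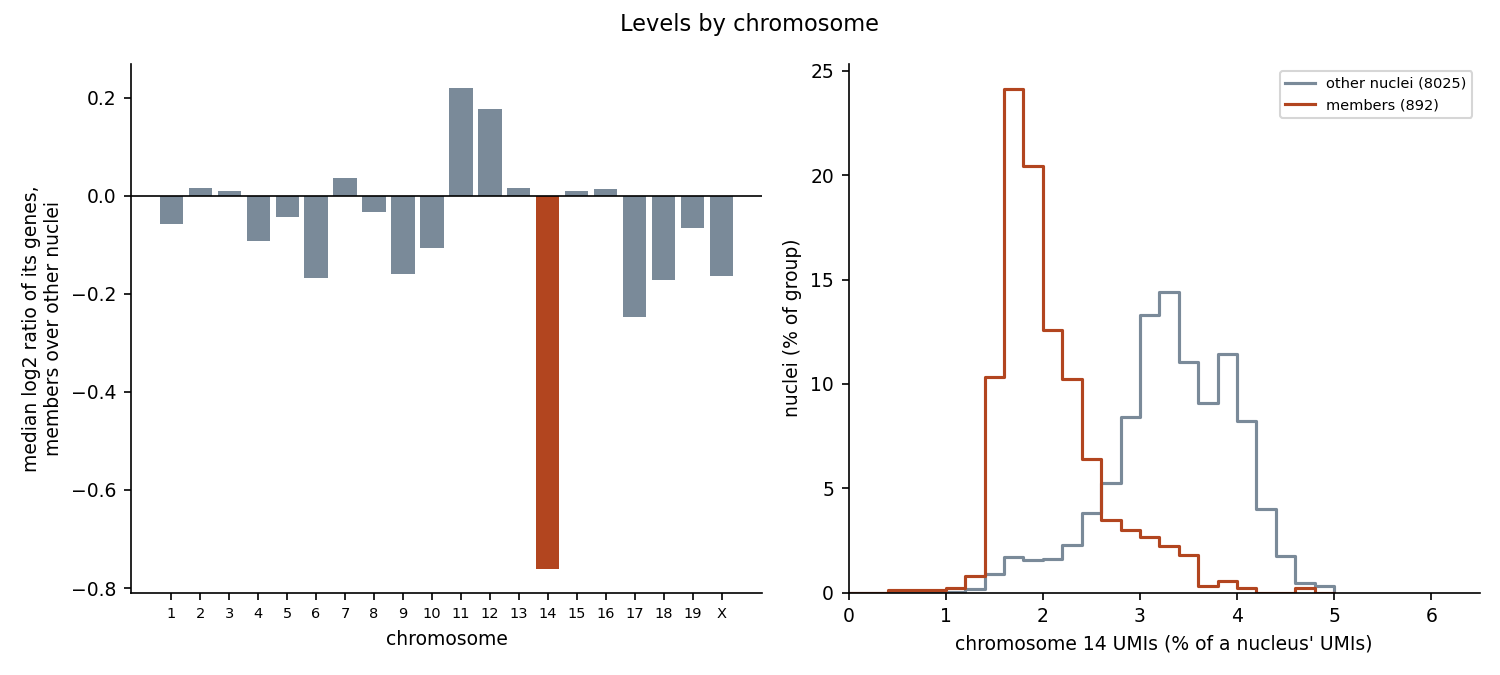
Median log2 ratio of members over other nuclei for the genes of each chromosome (left), and the share of a nucleus' UMIs on chromosome 14, as a percent of nuclei in each group (right). Chromosome 14 is the lowest at -0.76, and the members peak below 2% with a tail across the range of the other nuclei.

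Y-linked transcripts and *Xist* divided the groups unevenly. At 5000 UMIs each, 65.9% (62.6 to 69.0) of members and 15.6% (14.8 to 16.4) of the other nuclei had a UMI of *Ddx3y*, *Eif2s3y*, *Kdm5d* or *Uty*, and 2.99% and 24.6% had *Xist*. Over all UMIs the shares were 79.0% and 23.3% for the Y-linked genes and 3.81% and 27.0% for *Xist*. In 32.5% of members and 61.0% of the other nuclei at 5000 UMIs neither was found. Both kinds were found together in 1.38% of members and 1.13% of the other nuclei. The 4 Y-linked genes summed to 302 CPM beside 52.8 CPM, and all 4 were at least 2 times as high. The share with a Y-linked UMI was 11.0% in nuclei without a UMI of the rule genes, 45.0% just below the members and 70.8% in the upper 446 members.

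**Figure D5:**
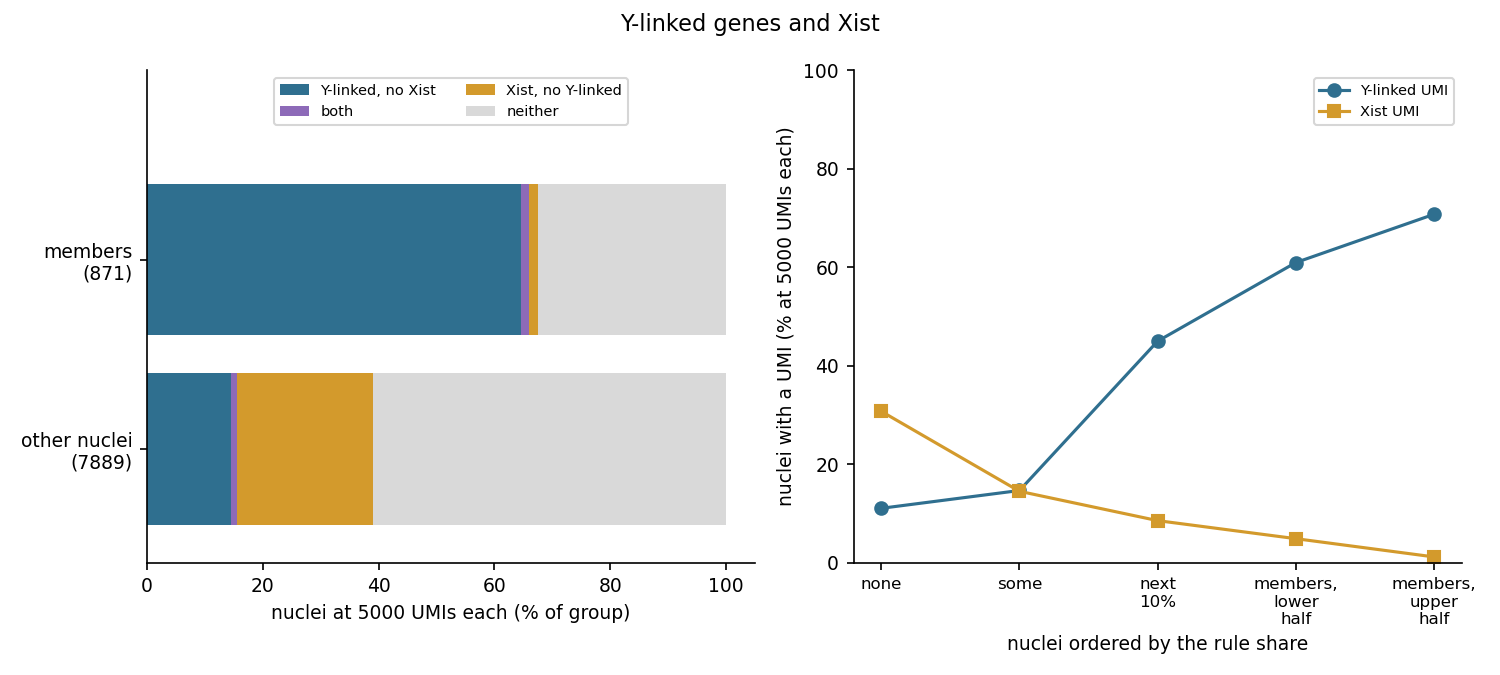
Nuclei with Y-linked or *Xist* UMIs at 5000 UMIs each, as stacked percents of 871 members and 7889 other nuclei (left) and along 5 steps of the rule share (right). The members are mostly Y-linked without *Xist* (64.5%, beside 14.5% of the other nuclei), and the *Xist* share falls to 1.14% in the upper members.

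Since the pups were of either sex, the comparison was repeated between members and other nuclei of the same kind, a choice made after these shares were seen. Among nuclei with a Y-linked UMI and no *Xist*, 675 members and 1634 others, *Syt1* was 1.96 times (1.86 to 2.07) as high in the members, *Cdk6* 4.198 times and *Unc5d* 2.98 times, and *Pdgfra* was at 0.528 times and *Sparcl1* at 0.278 times. Chromosome 14 stood at 0.718 times (0.715 to 0.722) there, while the OPC list turned to 0.975 times (0.966 to 0.985). Among the 183 members and 4227 others with neither, *Syt1* was 2.01 times (1.82 to 2.21), *Cdk6* 15.9 times and *Unc5d* 6.73 times as high, with *Pdgfra* at 0.465 times and chromosome 14 at 0.608 times. Only 4 members had *Xist* and no Y-linked UMI, too few for a comparison. The 1930 other nuclei of that kind stood at 2773 CPM for the OPC list, 87.9 CPM for *Pdgfra* and 34.0 CPM for *Syt1*. The other nuclei with a Y-linked UMI and no *Xist* stood at 6677, 289 and 132 CPM. Those with neither stood at 6084, 333 and 109 CPM. Ratios over all kept nuclei include the 1930 nuclei among the others. Among the members themselves, Y-linked nuclei and those with neither were close in *Pdgfra* (152 and 155 CPM) and chromosome 14 share (2.14% and 2.20%). *Syt1* was higher in the Y-linked members, at 260 and 219 CPM, and so was *Marchf1*, at 403 and 263 CPM.

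Genes that span over 300 kb were more often high in the members than shorter genes. The rule genes and *Syt1* span 711, 545, 478 and 513 kb. Of the compared genes with a known position outside chromosome 14, 9267 without the rule genes, 2.94% were at least 2 times as high in the members. Among the 422 of them that span over 300 kb, 15.4% were, with a median log2 ratio of 0.23. Among those of 10 to 30 kb, 1.19% were, with a median log2 ratio of -0.03. Genes under 10 kb were at 3.31%, so the share did not climb evenly with span. At most 0.5 times as high were 2.61% of the genes over 300 kb, 2.83% of those of 100 to 300 kb and 1.45% of all 9267. The genes over 300 kb gave 12.9% of the members' UMIs and 10.3% of those of the other nuclei. Long genes give many intronic reads in nuclei, and the part of gene span in these differences was not tested.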

How the data were processed

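The data are 10x snRNA-seq of BB-p53n OPCs in culture, as 1 library. The authors called barcodes with Cell Ranger 8.0.1 and mm39 reference files and deposited raw UMI counts of 33696 genes in 10047 barcodes, without normalization. Gene positions were taken from GENCODE vM39 on GRCm39, the same build, and 33185 genes matched by Ensembl identifier.

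Nuclei with 2000 to 8000 detected genes were kept (141138093 UMIs in all, 11369688 of them in the members). The authors kept far fewer nuclei of this library after their filtering. As many as theirs remained here with at most 5% mitochondrial UMIs, 195 members and 1759 other nuclei. The members and the gene lists were chosen with earlier results of these data known. UMIs were summed over members and over other nuclei and compared as a ratio of CPM for genes with at least 10 CPM in either group, or at least 20 CPM for chromosome medians, and a ratio of at least 2 or at most 0.5 was counted. With 1 library no test was possible. Intervals were 95% exact Poisson, Clopper-Pearson or conditional binomial intervals. A sum of 0 was set to 3 UMIs for ratios, and shares of nuclei were taken from 5000 UMIs drawn per nucleus without replacement. The sums, intervals and draws were tested on simulated data.

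Genes were named by a rule, starting with the rule genes and *Syt1*. Each of 30 lists (416 different genes) added up to 4 genes of at least 10 CPM furthest from a ratio of 1. The 12 highest and 12 lowest genes of 100 or more UMIs, found in 25% or more nuclei of the higher group, were added. Some of these genes and 1 marker list are not reported here. Defining markers near 0 and genes named for contrast were picked after their values were seen. Alternatives changed the cutoffs on genes, mitochondrial UMIs and members, the rule genes, the UMIs used, the level filter and the doublet scores. Comparisons within nuclei alike in Y-linked and *Xist* UMIs and counts without chromosome 14 were added after the data were seen. Analyses used Python 3.11.15, numpy 2.4.6, scipy 1.17.1, pandas 2.3.3 and scanpy 1.11.5, and figures matplotlib 3.10.9.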

Additional observations from a re-analysis of the deposited data

How the results depend on the processing

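The 7 main results were the ratio of members to other nuclei for *Syt1* (2.57), the neuron list (1.44), the OPC list (1.18) and the chromosome 14 share (0.640), the percent of members with a Y-linked UMI (65.9), and the counts of genes at least 2-fold higher (280) and lower (190). Every ratio kept its side of 1 under every alternative run, except the OPC list. Among nuclei with a Y-linked UMI and no *Xist* the values were 1.96 for *Syt1*, 1.19 for the neuron list, 0.975 for the OPC list and 0.718 for chromosome 14, with 173 genes higher and 63 lower, and among nuclei with neither 2.01, 1.35, 1.03 and 0.608, with 378 higher and 215 lower. Of the genes named beside these that passed 2-fold, 33 of 54 kept it in the first of these comparisons and 49 of 54 in the second, as did 47 of 59 with at most 5% mitochondrial UMIs and 55 to 59 of 59 under the other choices of nuclei and rule. *Grin2a*, at 0.179, turned to 3.53 and 1.59 in these 2 comparisons, and the cause was not tested. With at most 5% mitochondrial UMIs the values were 2.38, 1.21, 1.07 and 0.651, with 70.3% Y-linked. Taking the top 5% gave 1.48 for the neuron list, 1.16 for the OPC list, 0.608 for chromosome 14, 70.8% and 286 genes lower, and the top 15% gave 2.35 for *Syt1*, 1.41 for the neuron list, 0.682 for chromosome 14, 62.2% and 113 genes lower. Members chosen on a random part of the UMIs and measured on the rest gave 2.37, 1.41, 1.17 and 0.658. The rule at 5000 UMIs gave 2.39, 1.40, 1.16 and 0.671. Without *Ralyl* the OPC list was at 1.17 and chromosome 14 at 0.650. Without *Tafa1* the neuron list was at 1.42, the OPC list at 1.16 and chromosome 14 at 0.668, with 62.4% Y-linked. Without *Tafa2*, *Syt1* was at 2.36, the OPC list at 1.19 and chromosome 14 at 0.665. Without the 8% of highest Scrublet scores the neuron list was at 1.48, the OPC list at 1.19 and chromosome 14 at 0.609. Chromosome 14 was at 0.624 with 3000 to 7000 genes and at 0.652 with all barcodes. At 50 CPM, 94 genes were higher and 51 lower, of fewer genes compared, and with no filter beyond 1 UMI 2068 were higher and 1253 lower, many of them on a few UMIs. Without genes of chromosome 14, 276 were higher and 134 lower. The percent with a Y-linked UMI after choosing on a random part of the UMIs uses all drawn UMIs.

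No paired analysis was possible because only 1 library was analysed, with no second group to share its number. A single library limits every value to these nuclei: culture, clone, sex of the pup and library cannot be told apart, and doublets could not be removed. A gene without a UMI in the members is bounded only at 0.324 CPM.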
